A study of Mus musculus with 6 samples.

Results

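The 10 genes described here carry the signals of transforming growth factor beta (TGF-beta) and activin: the ligand genes Tgfb1 and Inhba, the receptor genes Tgfbr1 and Tgfbr2, the signal transducers Smad2, Smad3 and Smad4, the feedback inhibitors Smad7 and Skil, and the matrix gene Tgfbi. They were taken by gene symbol, and all 10 were found once each among the 21936 genes of every expression table. RNA was sequenced from sorted mouse macrophages in 3 libraries labelled WT (genotype given as ALKBH5flox/flox and APOE-/-) and 3 libraries labelled CKO (the same alleles plus Lyz2-Cre). All animals had eaten a high-fat diet for 4 months, and the labels give the APOE-/- and floxed alleles to both groups, so neither is labelled as fully wild type. The Lyz2 gene is active in macrophages and neutrophils, so Cre made from this locus is not limited to macrophages. Animal age and the number of animals behind a library are not given in the sources used here.

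TGF-beta and activins are dimeric ligands that bind a type II receptor, which activates a type I receptor. The type I receptor phosphorylates SMAD2 and SMAD3, which join SMAD4, enter the nucleus and act on target genes. SMAD7 blocks the receptor and SKIL (SnoN) represses SMAD complexes on DNA, and both are themselves known targets of the pathway. Macrophages make latent TGF-beta and respond to it, and activin A, the dimer of the Inhba product, is made by activated macrophages.

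Values are FPKM, the reads of a gene per kilobase of its length and by the library's total of reads assigned to genes, so levels of different genes can be compared per length. The 6 libraries held 15422154 to 18418903 assigned reads, at which 3 reads of a gene 1 kb long are worth 0.163 to 0.195 FPKM; such floors cover counting error only. Alkbh5, deleted per the labels, went against its label, with 3.77 to 3.95 FPKM in the WT-labelled libraries and 8.50 to 9.15 in the CKO-labelled ones. Apoe, labelled null in both groups, read 1607 to 1665 and 89.6 to 98.1 FPKM. Counts over whole genes cannot show whether an exon was missing, and each direction given here follows the labels and not a checked genotype. The 8 macrophage markers looked at were all above 1 FPKM in both groups but moved apart, with 5 called higher, among them Fcgr1 (28.8 to 234.8 FPKM) and Adgre1 (221.8 to 777.6), and 3 lower, Cd68 (1149 to 594.6), Mertk (18.4 to 8.18) and Lyz2. Csf1r was among the higher ones as deposited and not called after quantile normalization. Their sum, mostly Lyz2, was 16350 to 18270 FPKM in the WT-labelled libraries and 9217 to 9644 in the CKO-labelled ones, and the part of such a shift in the results here was not tested. Lyz2 itself averaged 15120 and 6556 FPKM. It is also the locus of the Cre allele that the labels give to the CKO group alone. For Lyz2 and this sum, an effect of that allele and a shift in cells cannot be told apart. Summed FPKM of other markers ran from 4.88 to 4.97 (WT-labelled) and 0.953 to 1.06 (CKO-labelled) for 7 T and NK cell genes, 2.11 to 3.77 and 1.02 to 1.82 for 5 B cell genes, and 0.812 to 1.39 and 2.72 to 3.15 for 5 smooth muscle genes. Most of the WT-labelled T and NK cell sum was Cd4, at 3.94 FPKM on average against 0.48 in the CKO-labelled libraries. Cd3e, Cd3d and Cd3g averaged at most 0.0749 FPKM in either group. Most of the smooth muscle sum was Acta2, at 0.99 and 2.82 FPKM, so these 2 sums mainly follow single genes. In sorted but bulk RNA, fewer cells of a type and less RNA per cell cannot be told apart.

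The ligand gene Tgfb1 and both TGF-beta receptor genes were lower in the CKO-labelled libraries, while the activin A chain gene, both feedback inhibitors and Tgfbi were higher. Differences were tested with limma on log2(FPKM + 1) over the 9953 genes that reached 1 FPKM in at least 3 libraries, and called at a Benjamini-Hochberg adjusted p under 0.05. All 10 genes passed the filter on low values, and 4 were called higher and 6 lower. Of all tested genes 30.5% were called higher and 50.5% lower, and 82.5% had groups with no overlap in value, so a call alone sets no gene apart here. Inhba and Smad7 were under 1 FPKM in every library labelled WT and passed the filter through the CKO-labelled libraries alone, so they had to differ. Of the 8 genes at 1 FPKM or more in all 6 libraries, 2 were higher and 6 lower, beside 30.2% and 49.8% of 8901 such genes. After median-of-ratios scaling 4 of the 10 were higher and 5 lower, beside 40.8% and 38.9% of all. The median log2 change of the 10 genes was -0.25, and that of all tested genes was -0.14. For single genes, exact two-sided permutation of the 6 libraries allows no p under 0.1, and each of the 10 gave 0.1.

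**Figure D1:**
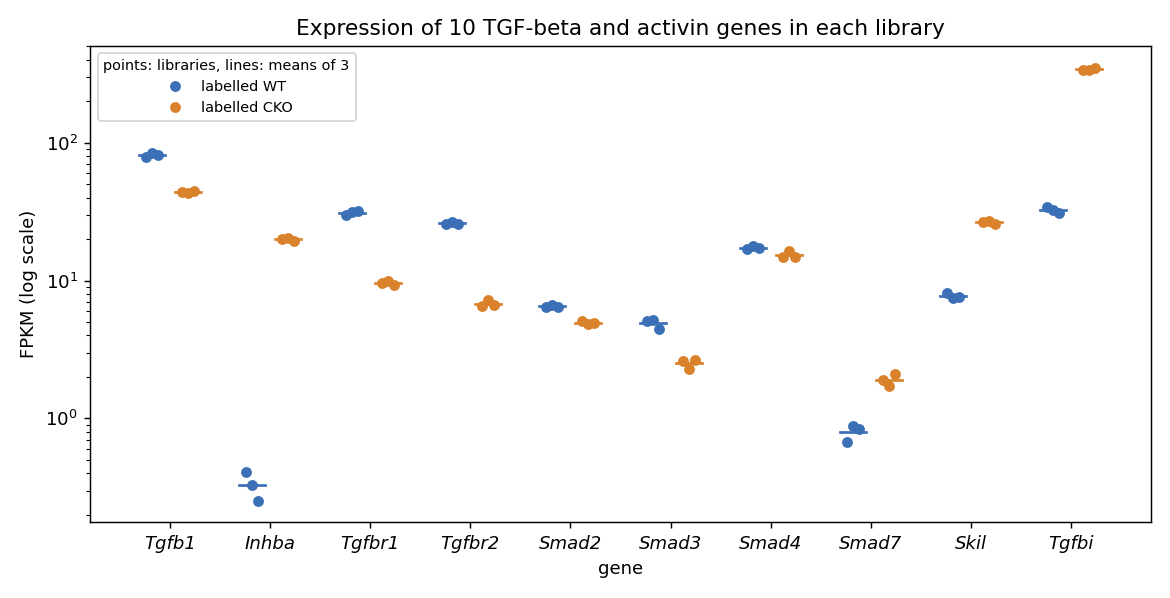
FPKM (log axis) of each of the 10 genes in the 3 libraries labelled WT (blue) and the 3 labelled CKO (orange); points are libraries and lines are means. The points of the 2 groups are apart for every gene, most widely for Inhba, at 0.331 against 19.9 FPKM on average, and least for Smad4, at 17.3 against 15.3.

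The sequences just upstream of the start site are shown for the pair of genes with the largest increases among the 10 (Inhba and Tgfbi) and for the receptor pair, which fell together. They are from the RefSeq promoter table for GRCm38.p6, the assembly of mm10, and run 5′ to 3′ on the gene's strand up to the base before the start. Promoters of 6 of the 10 genes were searched. Skil had no entry, and the promoters of Smad2, Smad4 and Smad7 are not reported here. That of Tgfbi stops where the files' gene begins. Capitals mark matches on either strand to the motifs searched: the palindromic SMAD element GTCTAGAC, the SMAD element CAGACA, the AP-1 site TGANTCA and a loose NF-kB site of 3 G, any 5 bases and 2 C.
Inhba promoter, chr13:16011601-16011850, + strand: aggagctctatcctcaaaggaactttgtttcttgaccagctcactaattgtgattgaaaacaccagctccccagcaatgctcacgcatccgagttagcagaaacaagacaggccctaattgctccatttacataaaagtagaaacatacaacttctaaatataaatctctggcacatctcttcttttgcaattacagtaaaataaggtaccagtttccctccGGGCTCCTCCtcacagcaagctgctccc
Tgfbi promoter, chr13:56609336-56609522, + strand: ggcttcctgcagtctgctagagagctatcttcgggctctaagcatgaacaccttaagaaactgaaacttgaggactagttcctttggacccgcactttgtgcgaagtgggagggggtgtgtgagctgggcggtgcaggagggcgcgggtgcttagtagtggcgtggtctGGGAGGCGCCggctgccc
Tgfbr1 promoter, chr4:47352972-47353221, + strand: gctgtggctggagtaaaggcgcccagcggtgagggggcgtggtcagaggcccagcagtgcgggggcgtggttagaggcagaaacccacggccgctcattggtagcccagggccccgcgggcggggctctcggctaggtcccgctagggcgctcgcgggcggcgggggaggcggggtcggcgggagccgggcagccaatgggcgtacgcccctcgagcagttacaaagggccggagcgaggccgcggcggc
Tgfbr2 promoter, chr9:116175364-116175613, - strand: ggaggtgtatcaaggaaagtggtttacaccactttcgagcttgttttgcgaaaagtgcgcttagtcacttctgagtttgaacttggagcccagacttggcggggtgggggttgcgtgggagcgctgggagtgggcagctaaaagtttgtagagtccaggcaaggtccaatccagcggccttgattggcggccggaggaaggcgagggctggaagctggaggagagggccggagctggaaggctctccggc

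The Inhba stretch was the poorest of the 4 in G and C, at 43.2%, against 59.4% for Tgfbi, 74.8% for Tgfbr1 and 58.4% for Tgfbr2. Its 1 match was to the NF-kB letters, GGGCTCCTCC, whose 5′ base lies at -28, counting the base before the start as -1. Tgfbi also held 1 such match, GGGAGGCGCC, whose 5′ base is at -18 counted from the end of the stretch shown, and neither receptor stretch had a match. Genes that fell held the NF-kB letters too. Tgfb1, not shown, had several matches, among them GGGACCCCCC at -140. Past the start, in bases searched but not shown, Tgfbr2 held GGTCCTGCCC at 8 and Smad3 GGCGGCACCC at 1. Those letters are loose: 50.8% of 32851 RefSeq promoters, each 250 bases before to 50 after a start, held at least 1. The palindromic SMAD element was in 0.213% of promoters, CAGACA in 21% and TGANTCA in 7.81%. In the 7 promoters of the 6 genes these 3 motifs gave 1 match, CAGACA at -203 of a second, downstream start of Tgfbr1 that is not shown. A match is a description of letters and not a bound site.

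Tgfb1 (ENSMUSG00000002603, mm10 chromosome 7, 25687002 to 25705077, + strand) encodes TGF-beta 1, secreted in a latent complex. It read 79.1, 84.8 and 80.8 FPKM in the WT-labelled libraries and 43.8, 43.1 and 44.7 in the CKO-labelled ones. All 3 libraries labelled CKO lay below all 3 labelled WT, with a wide gap and a narrow spread on each side. The mean fell from 81.6 ± 2.90 to 43.9 ± 0.784 FPKM (SD, n = 3), a log2 change of -0.88 (SE 0.0344, limma adjusted p = 5.95e-10). The library totals for this gene were 3352 to 7670 reads. Platelets, which store TGF-beta 1, could contribute RNA: the summed level of 7 platelet markers was 190.4 to 210.1 FPKM in the WT-labelled libraries and 121.1 to 132.4 in the CKO-labelled ones, with 6 of 7 reaching 1 FPKM in a group and Gp1bb at 0 in all libraries. Neutrophil markers, also 6 of 7 at that level, summed to 589 to 860.3 against 62.3 to 79.2 FPKM. Their part in the Tgfb1 difference was not tested.

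Inhba (ENSMUSG00000041324, chromosome 13, 16011851 to 16031621, + strand) encodes the beta A chain that pairs with itself as activin A. Its level was 0.408, 0.331 and 0.254 FPKM in the WT-labelled libraries, from 27 to 48 reads each, and 20.0, 20.3 and 19.3 FPKM in the CKO-labelled ones, from 2002 to 2199 reads each. The gene went from a low but detected level to a level above Smad4. The mean rose from 0.331 ± 0.0771 to 19.9 ± 0.503 FPKM, 60.1-fold as a ratio of means, and by 3.97 on the log2(FPKM + 1) scale, which understates changes of low genes (SE 0.0580, limma adjusted p = 1.65e-13). On that scale it had the rank 72 among increases of 9953 genes. Since Inhba passed the filter through the CKO-labelled libraries alone, it had to differ once tested. The other chains that could pair with it were under 0.05 FPKM in all libraries: Inhbb read at most 0.0264 FPKM, Inha, the inhibin alpha chain, was detected in 1 library at 0.0440, and Inhbc and Inhbe were at 0. Tgfb2 and Tgfb3, the other TGF-beta ligands, read at most 0.0375 and 0.0958 FPKM. Tgfb2 overlapped between the groups, and Tgfb3 was at 4 reads in all in the WT-labelled libraries and 14 in the CKO-labelled ones, with no overlap.

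Both receptor genes fell, with 95% intervals of the log2 change (-1.70 to -1.52 for Tgfbr1 and -1.89 to -1.69 for Tgfbr2) below that of Tgfb1 (-0.96 to -0.80). Tgfbr1 (ENSMUSG00000007613, chromosome 4, 47353222 to 47414931, + strand), the type I receptor, read 30.1, 31.6 and 31.7 FPKM in the WT-labelled libraries and 9.52, 9.87 and 9.21 in the CKO-labelled ones. Tgfbr2 (ENSMUSG00000032440, chromosome 9, 116084293 to 116175360, - strand), the type II receptor that binds the ligand, read 25.7, 26.4 and 25.8 FPKM against 6.59, 7.22 and 6.59. For each receptor every library labelled CKO lay far below every library labelled WT. The log2 change was -1.61 for Tgfbr1 (SE 0.0414, limma adjusted p = 1.59e-11) and -1.79 for Tgfbr2 (SE 0.0445, limma adjusted p = 1.20e-11), or 3.27-fold and 3.82-fold lower as ratios of means. At least 911 reads stood behind each receptor value. On the plot of all changes both lie well into the lower tail, at ranks 356 and 266 among decreases of 9953 genes.

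The 3 transducer genes were lower in FPKM as deposited. Smad3 (ENSMUSG00000032402, chromosome 9, 63646767 to 63757994, - strand), which binds DNA directly, read 5.06, 5.14 and 4.48 FPKM in the WT-labelled libraries and 2.60, 2.27 and 2.65 in the CKO-labelled ones. Smad2 (ENSMUSG00000024563, chromosome 18, 76241580 to 76310963, + strand), its close relative downstream of the same receptor, read 6.39, 6.63 and 6.47 FPKM against 5.08, 4.81 and 4.91. Smad4 (ENSMUSG00000024515, chromosome 18, 73639009 to 73703780, - strand), the common partner of both, read 17.0, 17.9 and 17.2 FPKM against 14.9, 16.2 and 14.9. The groups did not overlap for any of the 3, but for Smad4 the highest library labelled CKO came close to the lowest labelled WT. Log2 changes were -0.75 for Smad3 (SE 0.0664, limma adjusted p = 8.98e-07), -0.34 for Smad2 (SE 0.0477, limma adjusted p = 4.95e-05) and -0.17 for Smad4 (SE 0.0451, limma adjusted p = 0.00520). These small differences depend on how libraries are put on 1 scale. Median-of-ratios scaling moved the median change of all genes by 0.15, to 0.01, and gave -0.18 for Smad2 (limma adjusted p = 0.00495) and 0.01 for Smad4 (limma adjusted p = 0.894), so the Smad4 call and its direction were lost. Relative to the median of all genes Smad4 changed by -0.03 and Smad2 by -0.20.

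The feedback inhibitors rose. Skil (ENSMUSG00000027660, chromosome 3, 31095058 to 31122577, + strand) read 8.06, 7.46 and 7.60 FPKM in the WT-labelled libraries and 26.6, 27.0 and 25.7 in the CKO-labelled ones. Smad7 (ENSMUSG00000025880, chromosome 18, 75367529 to 75395935, + strand) read 0.673, 0.888 and 0.836 FPKM against 1.90, 1.72 and 2.11, from 56 to 72 and 120 to 170 reads. All libraries labelled CKO lay above all labelled WT for both genes. Smad7 passed the filter through the CKO-labelled libraries alone, so it had to differ once tested. Skil rose by 1.66 (SE 0.0429, limma adjusted p = 1.68e-11), or 3.43-fold as a ratio of means. Smad7 rose by 0.69 (SE 0.0741, limma adjusted p = 4.62e-06), or 2.39-fold. Its log2 change depends on the pseudocount, with 1.17 at a pseudocount of 0.1 and 1.27 by limma voom on recovered reads (limma adjusted p = 1.13e-05 and 2.03e-08).

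Tgfbi (ENSMUSG00000035493, chromosome 13, 56609523 to 56639562, + strand) encodes a secreted matrix protein named for its induction by TGF-beta, and it was the most abundant of the 10 in the CKO-labelled libraries. It read 33.9, 32.7 and 31.0 FPKM in the WT-labelled libraries and 335.7, 338.1 and 350.1 in the CKO-labelled ones. The groups were separated by an order of magnitude, with little spread inside either. The mean rose from 32.5 ± 1.44 to 341.3 ± 7.74 FPKM, 10.5-fold, with a log2 change of 3.35 (SE 0.0360, limma adjusted p = 1.74e-14) and the rank 115 among increases of 9953 genes. Fibroblasts, another source of Tgfbi and Inhba, were sought by 7 markers, whose summed level was 0.760 to 1.09 FPKM in the WT-labelled libraries and 2.12 to 2.40 in the CKO-labelled ones. The collagen genes Col1a1 and Col1a2 were lower there, at 0.156 and 0.0564 FPKM on average, with no overlap, while Col3a1 and Pdgfra were under 0.05 FPKM in every library and overlapped. Dcn, decorin, was higher, at 0.0607 ± 0.0326 against 0.574 ± 0.0978 FPKM from 19 and 169 reads in all, and Lum, lumican, too, at 1 and 15 reads in all, with no overlap for either. Only Pdgfrb of the 7 reached 1 FPKM, at 1.33 ± 0.0292 in the CKO-labelled libraries, 7.02-fold the WT-labelled mean. It passed the filter through the CKO-labelled libraries alone, so it had to differ. The part of fibroblasts in the Tgfbi and Inhba differences was not tested.

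**Figure D2:**
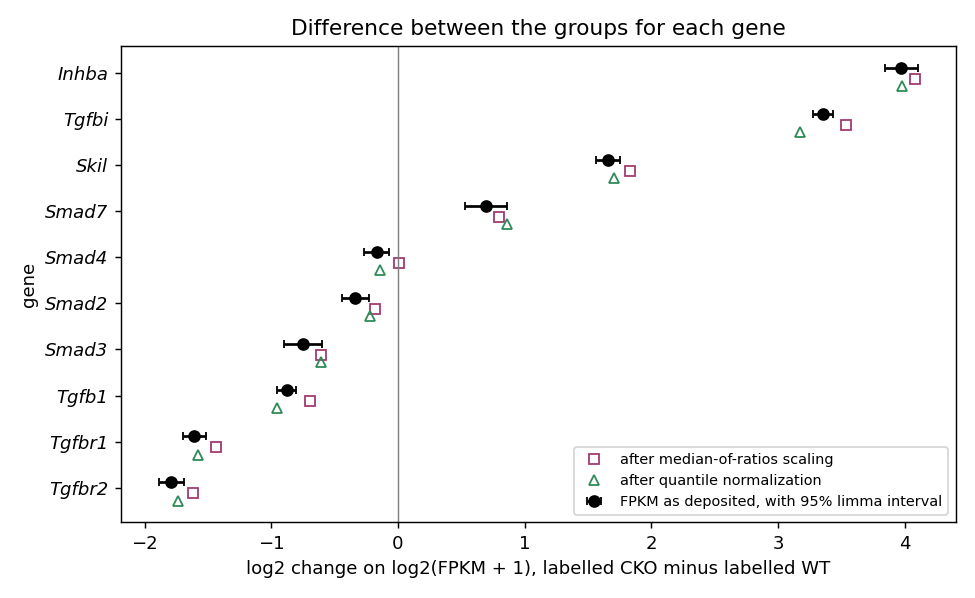
Log2 change on log2(FPKM + 1), labelled CKO minus labelled WT, for each gene: black points are from FPKM as deposited with the 95% interval of limma, squares follow median-of-ratios scaling and triangles quantile normalization. Smad4 is at -0.17 as deposited and at 0.01 after median-of-ratios scaling, and the other 9 genes keep their side of 0 under both.

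**Figure D3:**
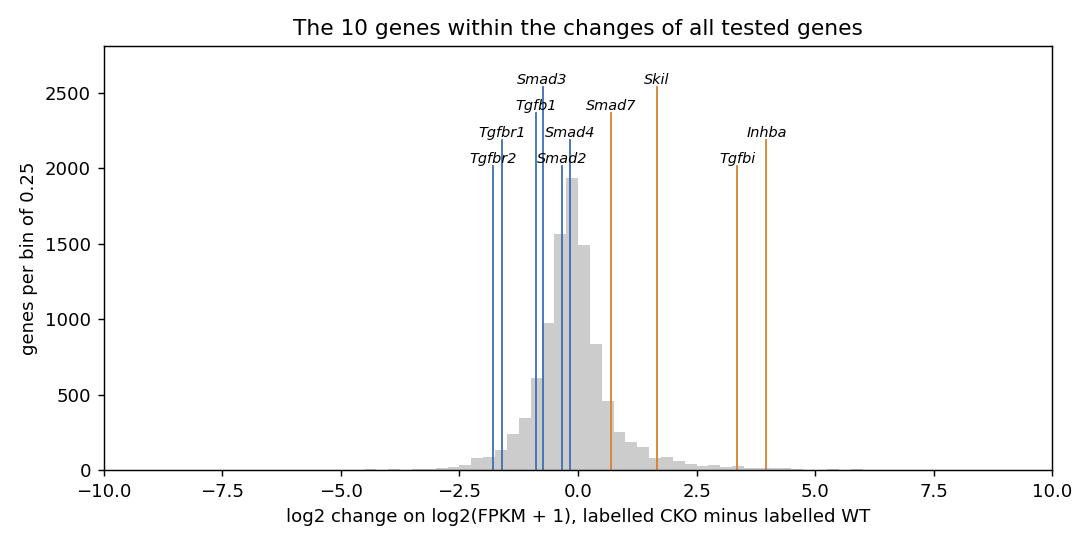
Number of genes (vertical axis, bins of 0.25) by log2 change on log2(FPKM + 1) for the 9953 tested genes in grey, with the 10 genes as lines (orange higher, blue lower in the CKO-labelled libraries). Inhba (3.97) and Tgfbi (3.35) lie in the upper tail, and Smad2 (-0.34) and Smad4 (-0.17) within the bulk of genes.

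The order of the levels changed between the groups. In the WT-labelled libraries, mean FPKM ran from Tgfb1 (81.6) over Tgfbi (32.5), Tgfbr1 (31.1), Tgfbr2 (25.9), Smad4 (17.3), Skil (7.71), Smad2 (6.50), Smad3 (4.89) and Smad7 (0.799) to Inhba (0.331). Only the neighbours Tgfbi and Tgfbr1 overlapped in that order. In the CKO-labelled libraries it ran from Tgfbi (341.3) over Tgfb1 (43.9), Skil (26.5), Inhba (19.9), Smad4 (15.3), Tgfbr1 (9.53), Tgfbr2 (6.80), Smad2 (4.93) and Smad3 (2.51) to Smad7 (1.91), with no overlap between neighbours. The activin chain thus moved from the bottom of the 10 to the fourth place, above both TGF-beta receptors.

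Ratios of FPKM between genes of the same library do not change when a library is scaled by a single factor, as in median-of-ratios scaling. Quantile normalization can change such ratios. From these genes and 2 relatives, Ski and Smad6, 9 ratios were formed on FPKM as deposited. Inhba over Tgfb1 was 0.00515, 0.00391 and 0.00314 in the WT-labelled libraries and 0.456, 0.471 and 0.433 in the CKO-labelled ones. Per length, Inhba RNA was scarce beside Tgfb1 RNA in the former group and close to its order of magnitude in the latter. Skil over Smad4, the repressor beside the SMAD it binds, went from 0.445 ± 0.0291 to 1.73 ± 0.0642, and Smad7 over Smad3 from 0.164 ± 0.0278 to 0.762 ± 0.0346 (n = 3). Skil over Ski, its paralogue, went from 0.375 ± 0.0196 to 1.66 ± 0.0471, so Skil passed Ski. By contrast Smad7 over Smad6, the other inhibitory SMAD, went down from 1.95 ± 0.152 to 0.668 ± 0.118. Skil over Smad3 went from 1.58 ± 0.123 to 10.6 ± 1.15. Shifts of less than 1.5 times either way were seen for Tgfbr2 over Tgfbr1 (0.834 ± 0.0203 to 0.713 ± 0.0197), for Smad3 over Smad2 (0.753 ± 0.0530 to 0.508 ± 0.0341) and Smad4 over Smad2 (2.67 ± 0.0241 to 3.11 ± 0.233). The groups did not overlap for any of the 9 ratios, each with an exact two-sided permutation p = 0.1, the smallest this design allows, and 0.1 after Benjamini-Hochberg adjustment over the 9. Inhba, Smad7 and Smad6 passed the filter through the CKO-labelled libraries alone and had to differ, so the separation of ratios that hold them adds no support.

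**Figure D4:**
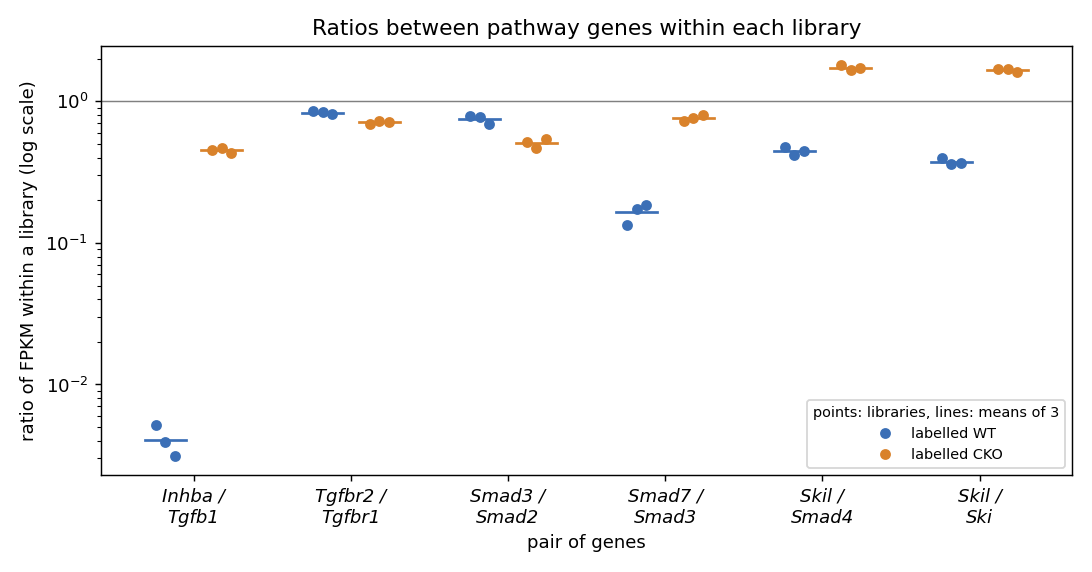
Ratio of FPKM between pairs of genes within each library (log axis; the grey line marks equal levels) for 6 of the 9 pairs; points are libraries and lines are means. Skil lies below Smad4 and Ski in the WT-labelled libraries (0.445 and 0.375) and above both in the CKO-labelled ones (1.73 and 1.66).

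A further 62 genes of the pathway were followed by role, of which 39 passed the filter, with 15 higher, 18 lower and 6 not called. Their median log2 change was -0.10, beside -0.14 for all tested genes. Of the 32 at 1 FPKM or more in all 6 libraries, 11 were higher and 16 lower. The 23 below the filter had group means of at most 0.979 FPKM. The counts are to be read against the 30.5% and 50.5% called among all tested genes, and the genes named are those with the smallest p in each role.

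While both TGF-beta receptor genes fell, 3 of 4 tested genes for activin and related ALK receptors rose and none fell, and 4 rose after median-of-ratios scaling. Acvr1b, the type I receptor used by activin, rose from 12.3 ± 0.494 to 25.5 ± 0.580 FPKM (log2 change 0.99, limma adjusted p = 9.99e-10). Acvrl1, a type I receptor best known from endothelium, rose from 5.41 ± 0.419 to 11.3 ± 0.387 FPKM (0.95, limma adjusted p = 2.58e-08), and Acvr1, a type I receptor of the BMP family, by 0.43 (limma adjusted p = 5.13e-05). Acvr2a, a type II receptor for activin, read 1.89 ± 0.246 and 2.13 ± 0.159 FPKM and was not called (limma adjusted p = 0.164), with a 95% interval of the log2 change from -0.05 to 0.29. Acvr2b, the other one, was below the filter, at 0.695 to 0.843 FPKM in the WT-labelled libraries and 0.193 to 0.231 in the CKO-labelled ones. Eng, the co-receptor endoglin, rose from 12.6 ± 0.314 to 33.7 ± 0.536 FPKM (1.35, limma adjusted p = 2.50e-11). The 6 endothelial markers, 3 of which reached 1 FPKM in a group, summed to 26.4 to 27.1 FPKM in the WT-labelled libraries and 7.77 to 8.99 in the CKO-labelled ones. Most of the WT-labelled sum was Vwf, at 19.8 FPKM. In the CKO-labelled libraries Vwf averaged 2.78 FPKM, below Kdr at 3.94. The endothelial markers did not move alike, and Kdr was also lower. Pecam1 was higher, at 0.880 ± 0.0471 and 1.47 ± 0.175 FPKM (limma adjusted p = 3.02e-04). It passed the filter through the CKO-labelled libraries alone, so it had to differ. Cdh5 was higher too, at 0.0623 and 0.156 FPKM with no overlap. Tek and Cldn5 were under 0.2 FPKM in every library. Their part in the Eng and Acvrl1 differences was not tested.

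Genes that hold or release latent TGF-beta were split, with 3 of 7 tested higher and 4 lower. Of the 4 at 1 FPKM or more in all 6 libraries, 2 were higher and 2 lower; Ltbp3, Lrrc32 and Itgb8 passed the filter through 1 group alone, so they had to differ. Nrros, which tethers latent TGF-beta 1 on macrophages and microglia, fell from 70.9 ± 0.476 to 34.0 ± 1.20 FPKM (log2 change -1.04, limma adjusted p = 1.24e-10). Ltbp3, a latent TGF-beta binding protein, fell from 1.98 ± 0.0552 to 0.378 ± 0.0672 FPKM (-1.11, limma adjusted p = 1.95e-08). Thbs1, thrombospondin 1, which can activate latent TGF-beta, rose from 17.8 ± 1.72 to 44.4 ± 2.34 FPKM (1.28, limma adjusted p = 5.14e-09); it is also a platelet gene. Of the 6 tested platelet markers, 4 were called lower, among them Ppbp (101.3 to 38.5 FPKM), and Pf4 and Gp6 were not called (limma adjusted p = 0.101 and 0.238) but were higher after median-of-ratios scaling (limma adjusted p = 5.08e-04 and 0.0389). Their part in the Thbs1 difference was not tested. Soluble antagonists of activin were scarce: Fst, follistatin, and Fstl3 read at most 0.0392 and 0.184 FPKM in any library. Fstl1, a relative, read 9.32 ± 0.618 and 8.65 ± 0.0375 FPKM and was not called (-0.10, limma adjusted p = 0.104), and its sign turned after median-of-ratios scaling, at 0.07.

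Regulators of the pathway inside the cell also differed among themselves. Smad6, the inhibitory SMAD best known from BMP signalling, rose from 0.414 ± 0.0802 to 2.89 ± 0.292 FPKM, 6.98-fold (log2 change 1.46, limma adjusted p = 6.47e-09), and passed the filter through the CKO-labelled libraries alone. Tgif1, a corepressor of SMAD complexes, rose by 0.51 (limma adjusted p = 5.75e-07), while Ski fell by 0.35 (limma adjusted p = 2.87e-06), or by 0.18 after median-of-ratios scaling. Among ubiquitin and phosphatase regulators 2 of 7 tested rose and 3 fell. Wwp1, a ubiquitin ligase that can target the TGF-beta receptor, read 55.0, 55.1 and 54.9 FPKM in the WT-labelled libraries and 3.92, 4.31 and 3.76 in the CKO-labelled ones (-3.49, limma adjusted p = 7.72e-14). This 13.8-fold gap was the widest decrease among the 39 tested genes of the list. Nedd4l, of the same ligase family, fell by 0.91 (limma adjusted p = 8.77e-08), and Smurf1, another member, which binds inhibitory SMADs, rose from 5.59 ± 0.19 to 13.1 ± 0.251 FPKM (1.10, limma adjusted p = 8.65e-10).

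In the BMP branch Smad1 rose by 0.28 (limma adjusted p = 0.00132) and its relative Smad5 fell by 0.51 (limma adjusted p = 2.77e-05), while the type II receptor gene Bmpr2 fell by 0.39 (limma adjusted p = 1.12e-04) as deposited and by 0.24 after median-of-ratios scaling. That scaling gave 0.43 for Smad1. Of the adaptors and the TAK1 arm, which carries TGF-beta signals without SMADs, 1 of 4 tested rose and 2 fell. Hgs, an endosomal adaptor, rose by 0.34 (limma adjusted p = 3.64e-06), or 0.52 after that scaling. Tab1, a partner of the TAK1 kinase, fell by 0.60 (limma adjusted p = 4.00e-06) and Map3k7, TAK1 itself, by 0.39 (limma adjusted p = 1.92e-05), or 0.22 after that scaling.

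Of the known target genes of the pathway 2 of 8 tested were higher, 5 lower and 1 not called, or 2 higher and 4 lower after median-of-ratios scaling. The 5 at 1 FPKM or more in all 6 libraries were all lower as deposited, while both higher ones, Cdkn2b and Id1, reached 1 FPKM in all libraries of the CKO-labelled group only. Cdkn2b, the cell cycle inhibitor p15, rose from 0.204 ± 0.108 to 2.25 ± 0.0969 FPKM (1.43, limma adjusted p = 9.68e-09). It was under 1 FPKM in every library labelled WT, so it had to differ once tested. Tsc22d1, a leucine zipper factor induced by TGF-beta, fell from 9.52 ± 0.287 to 2.60 ± 0.256 FPKM (-1.55, limma adjusted p = 5.76e-10). Id3, an inhibitor of helix-loop-helix factors that answers to TGF-beta and BMP signals, fell from 4.87 ± 0.575 to 1.37 ± 0.212 FPKM (-1.31, limma adjusted p = 5.88e-08). Further targets or feedback genes below the filter were low in both groups. Ccn2 read 0.113 to 0.275 FPKM over the 6 libraries, and its groups overlapped. Pmepa1 was higher in the CKO-labelled libraries, at 0.0122 to 0.0454 against 0.132 to 0.240 FPKM, from 7 and 44 reads in all. Bambi and Itgae were lower there, from 262 against 93 and 47 against 20 reads in all. The groups of Pmepa1, Bambi and Itgae did not overlap.

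**Figure D5:**
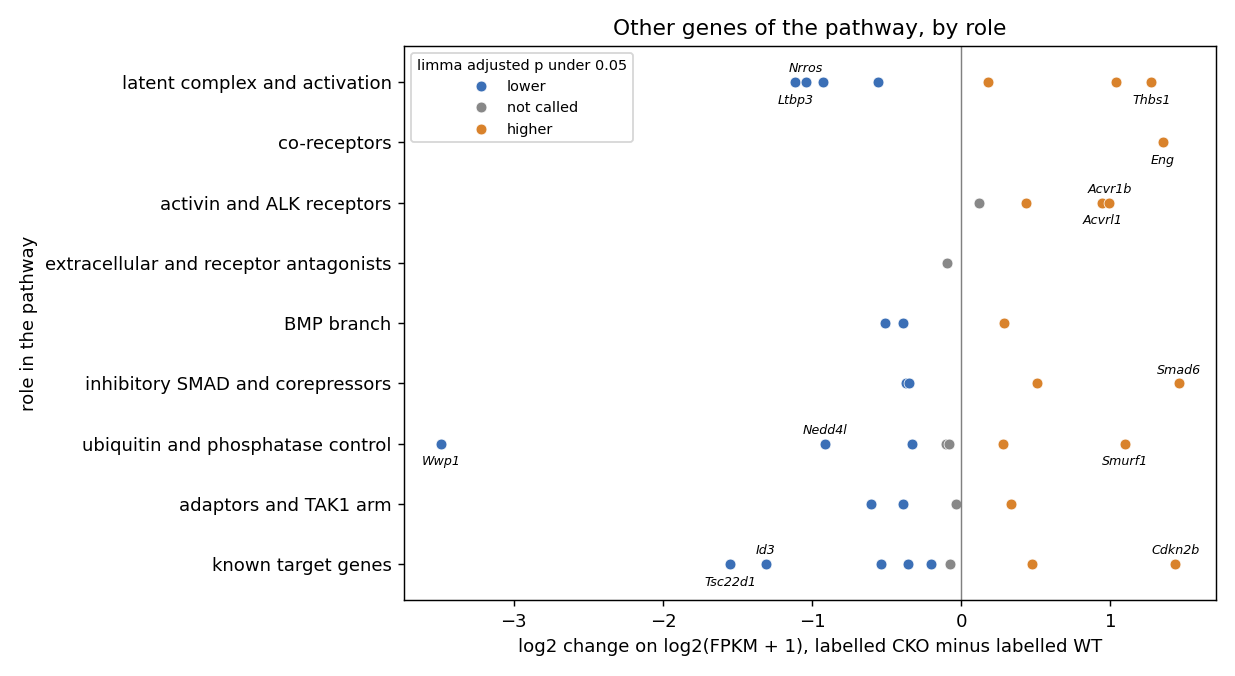
Log2 change on log2(FPKM + 1), labelled CKO minus labelled WT, of the 39 tested further genes of the pathway, in rows by role; each point is a gene, coloured by its limma call, and the genes named in the text with large changes are labelled. Activin and ALK receptors lie at or right of 0, target genes on both sides and Wwp1 (-3.49) far left.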

How the data were processed

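RNA came from sorted macrophages, extracted with TRIzol and made into libraries with a stranded mRNA kit, per the labels' protocols. The authors deposited 1 table of FPKM per library, per the file headers. Per the submitters' processing notes, which give neither roles nor order, the build was mm10 and the tools were featureCounts 1.6.2, HISAT2 2.1.0, fastp 0.19.3, Cufflinks, StringTie 1.3.4d, GATK 4.0.11.0 and DESeq2 1.22.1; whether counting used strand is not given in the sources used here. For all 10 genes the listed coordinates equal those in GENCODE M21, and no exon overlaps another gene there. FPKM times gene length gave whole multiples of 1 step for 100% of values within 0.01 reads, so reads were recovered for depth and for 1 alternative test.

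Groups and replicate numbers came from sample titles. Whether libraries of a group are separate animals is not stated, and p-values cover just the spread between libraries, which may be technical. Genes reaching 1 FPKM in 3 or more libraries entered the limma 3.58.1 fit (R 4.3.3, intensity trend, values as log2(FPKM + 1), group as sole term) and p-values were adjusted over all of them by the Benjamini-Hochberg method. The fit was tested on simulated data in which few genes changed, evenly in both directions. Most genes were called in the real data, more of them lower, so that test does not check the fit in this setting. Exact tests, ratios and motif searches used scipy 1.17.1, pandas 2.3.3 and numpy 2.4.6 under Python 3.11.15. Alternatives were pseudocounts of 0.1 and 0.5, leaving out each library, the replicate block, a filter at a mean of 5 FPKM or none, 2 other scalings, limma with array weights or without trend, and limma voom on recovered reads. Leaving out a library with the tested genes held was chosen after seeing the data. The 10 genes, the pathway list and the markers were chosen with earlier results of these data known. Named from the pathway list were up to 3 tested genes of each role with the smallest p, and genes below the filter; Acvr2a was named after its values were seen. Protein sequences were not used here, and 1 gene of the pathway list is not reported here.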

Additional observations from a re-analysis of the deposited data

How the results depend on the processing

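Over 22 alternative fits, 211 of 212 values for the 10 genes kept their direction and their side of the threshold, and the exception was Smad4 after median-of-ratios scaling, at 0.007 (limma adjusted p = 0.894). Of that scaling's calls 51.2% were higher in the CKO-labelled libraries, against 37.7% as deposited. The 212 values include 19 of Inhba and 18 of Smad7. These 2 genes passed the filter through the CKO-labelled libraries alone and had to differ, so their agreement adds no support. Leaving out 1 library with the filter applied again gave 2 to 4 of the 10 genes higher, 6 lower each time, 7331 to 7561 genes called in all, and 12 to 15 further pathway genes higher and 16 to 19 lower; without any 1 library labelled CKO, Inhba and Smad7 left the test and 2 genes were higher. With the tested genes held, 4 were higher and 6 lower each time. With the filter at a mean of 5 FPKM, where 24 further pathway genes were tested, 9 were higher and 11 lower. Replicate numbers did not pair the libraries: deviations of same-numbered libraries correlated at 0.019, 0.012 and -0.039, and 2 of 6 libraries correlated best with their own number. With the replicate block 8041 genes were called instead of 8069, with 4 of the 10 genes higher and 6 lower, and 15 further pathway genes higher and 18 lower. Depth limits Inhba, with 27 reads in 1 library labelled WT, and Smad7, with 56.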
